A study of Homo sapiens with 60 samples.

Results

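The mitosis genes described here are 44 genes that dividing cells use to enter and complete mitosis. They were chosen by symbol, as the rows of the gene table whose Ensembl identifier maps to one of 44 named members, and all 44 were found among the 60675 genes of the table. All 44 also passed the filter on low counts, among 17919 genes tested. By role they comprise 4 genes for cyclins and the kinase they activate, 2 CDC25 phosphatases, 4 mitotic kinases, 4 genes of the spindle checkpoint, 3 genes of the anaphase-promoting complex and its substrate securin, 8 kinesins, 5 centromere and kinetochore genes, 2 genes of the chromosomal passenger complex, 5 spindle and microtubule proteins, 3 genes of the midzone and of cytokinesis, 2 markers of proliferating chromosomes and 2 others, FOXM1 and CDCA3.

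The RNA came from SW1783 cells, an established line from a human astrocytoma, treated for 24 h and sequenced in 60 libraries that form 22 groups. The drugs, each at 10 µM, were thioridazine, a phenothiazine antipsychotic, and wortmannin and LY294002, which inhibit PI3-kinase, with 3 libraries each. Hot-water extracts of licorice (Glycyrrhizae Radix), peony (Paeoniae Radix), atractylodes (Atractylodis Rhizoma), angelica (Angelicae Gigantis Radix), ginseng (Panax Ginseng) and poria (Poria Cocos) were each given at 20, 100 and 500 µg/mL, here the low, medium and high dose. Each extract group had 3 libraries, except the angelica and peony groups with 2, whose replicate 3 was not analysed here. The vehicle group, 3 libraries, received DMSO, for which the labels state 0.1% and the series text states 2%. No source says which was used or whether the treated cells held the same amount. The series text also states that an extract reaching IC20 under 500 µg/mL was given at lower doses, while the labels give 500 µg/mL for the high dose of all 6 extracts.

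The titles of all 60 libraries name the same batch, BatchA. The sets used here are read from the first field of the sample codes, and no label says what that field stands for. By its sample codes the vehicle belongs to none of the 4 sets that hold the treated libraries. In comparisons with vehicle an effect of the set and one of the treatment therefore cannot be told apart. The 3 drugs share a set, and so do the doses of one extract. Every comparison with vehicle rests on the same 3 vehicle libraries. No source states that the replicates of a group were grown separately, and the p-values may thus reflect technical spread between libraries alone. In RNA from whole cultures, fewer dividing cells and less RNA per dividing cell cannot be told apart. Library totals ran from 27.37 to 29.87 M counts in the vehicle libraries and from 19.45 to 30.87 M over all 60. An earlier look at these data set 5 libraries apart from their groups: peony high replicate 1, atractylodes high replicate 1, ginseng low replicate 1, licorice medium replicate 3 and angelica low replicate 2. Among markers of astroglial cells, VIM, CD44, SOX9, SLC1A3 and NES were present in the vehicle libraries (the lowest, NES, at 6.23 ± 0.62 CPM), whereas GFAP, S100B, AQP4, SLC1A2 and ALDH1L1 were at or near 0 (0.205 CPM or less). Among markers of neurons, oligodendrocytes, blood, endothelial and epithelial cells, SYT1 (36.9 ± 1.8 CPM), SNAP25, PTPRC and MBP were above 5 CPM in vehicle, and MOG, CD3E and HBB had a count of 0 there (SD, n = 3).

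Mitotic cyclins bound to CDK1 drive the entry into mitosis, and the anaphase-promoting complex with CDC20 ends it by marking cyclin B and securin for destruction. Most of these genes are transcribed in G2 and M phase. In resting and early-cycle cells the DREAM complex represses them through a promoter element called the cell cycle genes homology region (CHR), and later B-MYB and FOXM1 activate them, often together with the factor NF-Y, which binds CCAAT boxes. PI3-kinase signalling supports cell cycle entry, and p21, the product of CDKN1A, holds cyclin-dependent kinases inactive.

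Promoter sequences are shown because the members share these elements, which played no part in choosing them. Promoter windows from RefSeq (GRCh38.p14, 250 bases before to 50 after a gene's start) were matched by symbol for 38 of 44 members; FOXM1, TTK, BIRC5, UBE2C, TPX2 and AURKA had no window in the table. The CCAAT box was searched on both strands. For the CHR, the letters TTTGAA were searched on both strands as well. The variant TTCGAA, which reads alike on both strands, was also counted as a CHR; no motif contains another. A CCAAT box was found for 32 of the 38 members (84.2%) and for 39.7% of the 27305 genes in the table. A CHR was found for 30 of 38 (78.9%) and for 19.5% of all genes, and both for 26 of 38 (68.4%) and for 7.8%. A match describes letters in the window and is not evidence of binding. Windows are printed for PLK1, CDC20, KIF20A and CDCA3, which lead the falls with one or more treatments, and for CCNB2, a B-type cyclin. Each is given 5′ to 3′ on the gene's strand from 250 bases before the start to 10 bases after it, with CCAAT and CHR matches in capitals.
PLK1, chr16:23678639-23678898, plus strand: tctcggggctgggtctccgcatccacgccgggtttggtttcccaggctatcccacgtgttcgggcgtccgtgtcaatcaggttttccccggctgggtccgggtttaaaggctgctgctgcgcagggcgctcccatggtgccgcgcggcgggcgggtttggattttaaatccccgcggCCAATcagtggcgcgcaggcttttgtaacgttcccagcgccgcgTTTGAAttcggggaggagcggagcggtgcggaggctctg
CDC20, chr1:43358731-43358990, plus strand: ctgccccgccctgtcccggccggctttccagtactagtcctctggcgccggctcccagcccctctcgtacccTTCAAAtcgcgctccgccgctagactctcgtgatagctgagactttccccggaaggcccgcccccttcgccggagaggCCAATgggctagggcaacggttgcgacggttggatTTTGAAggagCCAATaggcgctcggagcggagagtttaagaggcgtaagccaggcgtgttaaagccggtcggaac
CCNB2, chr15:59104896-59105155, plus strand: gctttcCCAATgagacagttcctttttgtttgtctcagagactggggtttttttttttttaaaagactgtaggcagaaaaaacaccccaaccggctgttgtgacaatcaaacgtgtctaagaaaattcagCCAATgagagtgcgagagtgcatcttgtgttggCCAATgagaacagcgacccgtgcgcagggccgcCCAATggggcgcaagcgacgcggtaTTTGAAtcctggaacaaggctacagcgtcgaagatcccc
KIF20A, chr5:138178862-138179121, plus strand: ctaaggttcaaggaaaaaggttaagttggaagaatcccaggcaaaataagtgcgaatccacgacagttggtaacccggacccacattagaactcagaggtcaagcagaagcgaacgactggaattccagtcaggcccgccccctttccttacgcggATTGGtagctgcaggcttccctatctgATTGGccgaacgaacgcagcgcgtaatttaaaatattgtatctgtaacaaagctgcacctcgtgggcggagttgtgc
CDCA3, chr12:6851277-6851536, minus strand: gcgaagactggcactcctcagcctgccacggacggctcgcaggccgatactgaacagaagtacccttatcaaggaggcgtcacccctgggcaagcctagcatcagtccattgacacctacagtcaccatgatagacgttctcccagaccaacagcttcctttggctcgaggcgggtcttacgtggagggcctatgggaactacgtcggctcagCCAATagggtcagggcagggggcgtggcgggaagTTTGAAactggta
PLK1 and CDCA3 each carry 1 CCAAT box and 1 CHR, CCNB2 has 4 CCAAT boxes and 1 CHR, and CDC20 has 2 of each. In the KIF20A window 2 CCAAT boxes and 0 CHR matches were found.

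Levels are given in CPM (counts per M counts of the library, with M as above) scaled by TMM, a factor that corrects for differences in RNA composition. Summed over the 44 members, the level was lowest after thioridazine and highest in vehicle. The thioridazine libraries held 3739, 3589 and 3483 CPM, and the vehicle libraries held 5994, 5845 and 5793 CPM. Licorice at the high dose came second from below with 4302, 4375 and 4190 CPM, followed by wortmannin with 4730, 4713 and 4589 CPM and LY294002 with 5012, 4801 and 4615 CPM. Next was peony at the high dose with 4999 and 5119 CPM. As a share of the vehicle mean these groups stood at 61.3% (thioridazine), 73.0% (licorice high), 79.6% (wortmannin), 81.8% (LY294002) and 86.1% (peony high). Neighbours in this order did not overlap from thioridazine to licorice high to wortmannin; the ranges of wortmannin and LY294002 overlapped, as did those of LY294002 and peony high. The other 16 treated groups held means between 89.9% (peony low) and 97.6% (poria high) of vehicle, with ranges that overlap in long runs. All 57 treated libraries lay below every vehicle library. On CPM scaled by library totals alone, 46 of 57 did, 11 groups changed rank, and vehicle ranked 19th instead of 22nd from the lowest, so the order among the weakly changed groups depends on the scaling. The order of the first 5 groups by mean was kept, with atractylodes high level with peony high.

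**Figure D1:**
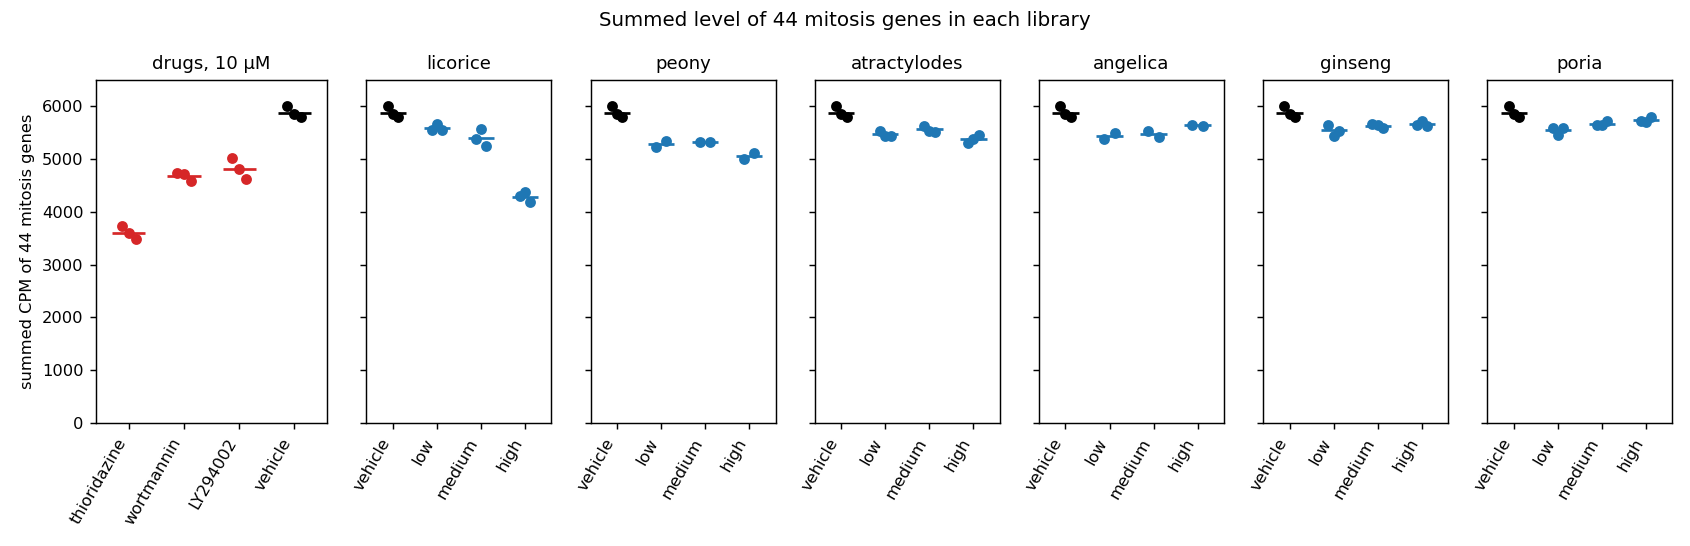
Summed CPM (TMM-scaled) of the 44 mitosis genes in each library, one panel for the drugs and one for each extract with the same vehicle libraries in black; points are libraries and bars are group means. Thioridazine (3483 to 3739 CPM) and licorice at the high dose (4190 to 4375 CPM) lie farthest below vehicle (5793 to 5994 CPM).

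The sums of the role classes ranked the groups differently; a sum weighs abundant members most. The mitotic kinases summed to 55.8% of the vehicle mean after thioridazine, 66.7% after licorice high, 71.7% after LY294002 and 74.2% after wortmannin. The kinesins stood at 59.7% (thioridazine), 70.2% (licorice high), 83.8% (LY294002) and 82.4% (wortmannin). The checkpoint genes stood at 63.6% (thioridazine), 75.1% (licorice high), 83.6% (LY294002) and 80.1% (wortmannin). For the centromere and kinetochore genes the sum was lowest after licorice high at 68.7%, below thioridazine at 75.2%, while LY294002 stood at 96.3%, but most of this sum is CENPF, a large kinetochore protein, with 319, 276 and 238 CPM after LY294002 and 285, 268 and 271 CPM in vehicle. Of the other 4 genes of the class, NUF2, NDC80 and SGO1 were lowest after thioridazine (-0.69 ± 0.06, -0.67 ± 0.06 and -0.80 ± 0.06 as log2 fold changes against vehicle ± SE), and all 3 were called lower after LY294002 (-0.15 ± 0.06, -0.24 ± 0.06 and -0.57 ± 0.06). The remaining gene, CENPA, went with the sum: it was lowest after licorice high and was not called with LY294002. The sum of the CDC25 phosphatases was also lowest after licorice high, at 68.2%, followed by wortmannin (74.9%), LY294002 (79.3%) and thioridazine (83.6%). That order is the order of CDC25B, by far the more abundant; CDC25C, the other phosphatase, averaged 14.5 ± 0.84 CPM after thioridazine, 15.6 ± 0.76 CPM after licorice high, 17.1 ± 1.0 CPM after wortmannin, 18.3 ± 0.85 CPM after LY294002 and 19.9 ± 0.24 CPM in vehicle (SD, n = 3 each), lowest after thioridazine. The genes of the anaphase-promoting complex and securin were at 57.5% after thioridazine, 69.2% after wortmannin, 71.3% after LY294002 and 77.0% after licorice high. The midzone and cytokinesis genes stood at 55.7% after thioridazine, and the other 3 of these groups were close together at 78.9% (wortmannin), 79.2% (LY294002) and 79.9% (licorice high). The chromosome markers stood at 52.7% after thioridazine and 70.8% after licorice high, and the passenger complex at 62.6% after thioridazine and 74.4% after licorice high. Per kilobase of exon, the highest vehicle levels among members were those of CDC20 (128.1 CPM per kb), PTTG1 (93.4 CPM per kb), ANLN (86.4 CPM per kb), TPX2 (85.8 CPM per kb) and CCNB1 (84.1 CPM per kb), and the lowest was that of SGO1 (5.14 CPM per kb).

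Calls use a threshold of 0.05 on the adjusted p of edgeR (quasi-likelihood, Benjamini-Hochberg over all genes tested), and changes are log2 fold changes ± SE. Thioridazine lowered every member: 44 of 44 were called lower, with a median log2 fold change of -0.69, against 23.8% of all genes tested called lower and a median of 0.02 over all genes. The largest fall was that of CDCA3, a trigger of mitotic entry that takes part in protein degradation, with 16.1, 14.7 and 13.96 CPM in the thioridazine libraries against 37.9, 36.6 and 34.5 CPM in vehicle (-1.28 ± 0.06, adjusted p = 9.16e-26 by edgeR). MKI67, which encodes the proliferation marker Ki-67 that coats mitotic chromosomes, had 141, 134 and 128 CPM after thioridazine against 330, 300 and 310 CPM in vehicle (-1.22 ± 0.14). AURKB, the kinase of the chromosomal passenger complex, had 25.2, 24.4 and 24.2 CPM against 53.6, 51.5 and 52.99 CPM in vehicle (-1.10 ± 0.06). In all 3 genes the groups were far apart, and the thioridazine libraries differed little among themselves.

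Among the kinases, PLK1, which acts from mitotic entry to cytokinesis, had 97.1, 91.4 and 86.1 CPM after thioridazine against 180, 167 and 172 CPM in vehicle (-0.92 ± 0.06), and AURKA, the centrosome kinase, 79.01, 76.8 and 71.4 CPM against 136, 130 and 135 CPM in vehicle (-0.82 ± 0.05). NEK2, a kinase of centrosome separation, changed less (-0.30 ± 0.06). CDC20, the activator of the anaphase-promoting complex, had 144, 131 and 133 CPM against 269, 267 and 248 CPM in vehicle (-0.94 ± 0.05). In the kinesin class KIF20A, a motor of the central spindle, fell most, with 73.2, 70.8 and 71.1 CPM after thioridazine against 144, 136 and 135 CPM in vehicle (-0.95 ± 0.05); the other 7 kinesins fell by 0.43 (KIF14) to 0.83 (CENPE) on the log2 scale. None of these groups overlapped. BUB1, a checkpoint kinase at kinetochores, had 45.2, 43.7 and 41.8 CPM against 76.9, 74.6 and 73.6 CPM in vehicle (-0.79 ± 0.04). TOP2A, the topoisomerase that untangles sister chromatids, had 280, 259 and 258 CPM against 442, 454 and 440 CPM in vehicle (-0.74 ± 0.04), and ANLN, a scaffold of the cytokinetic ring, fell by 1.06 on the log2 scale. CDK1 itself had 47.7, 45.4 and 43.7 CPM against 67.8, 74.5 and 70.4 CPM in vehicle (-0.64 ± 0.06), the one comparison with vehicle in which CDK1 was called lower.

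The smallest falls after thioridazine were those of CDC25B (-0.24 ± 0.03), a phosphatase that activates cyclin-dependent kinases at mitotic entry, and CENPA (-0.25 ± 0.07), the histone variant of centromeres. CDC25B had 233, 233 and 237 CPM after thioridazine against 282, 278 and 274 CPM in vehicle. CENPA had 19.3, 20.3 and 17.02 CPM against 23.8, 22.4 and 20.9 CPM in vehicle. Both were lower without overlap, CENPA by a small margin. CCNB1, the main mitotic cyclin, had 165, 169 and 162 CPM against 213, 223 and 209 CPM in vehicle (-0.38 ± 0.06), while CCNA2, the cyclin of S and G2 phase, fell more (-0.95 ± 0.05). FOXM1 had 142, 145 and 142 CPM after thioridazine against 206, 196 and 205 CPM in vehicle (-0.50 ± 0.05).

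**Figure D2:**
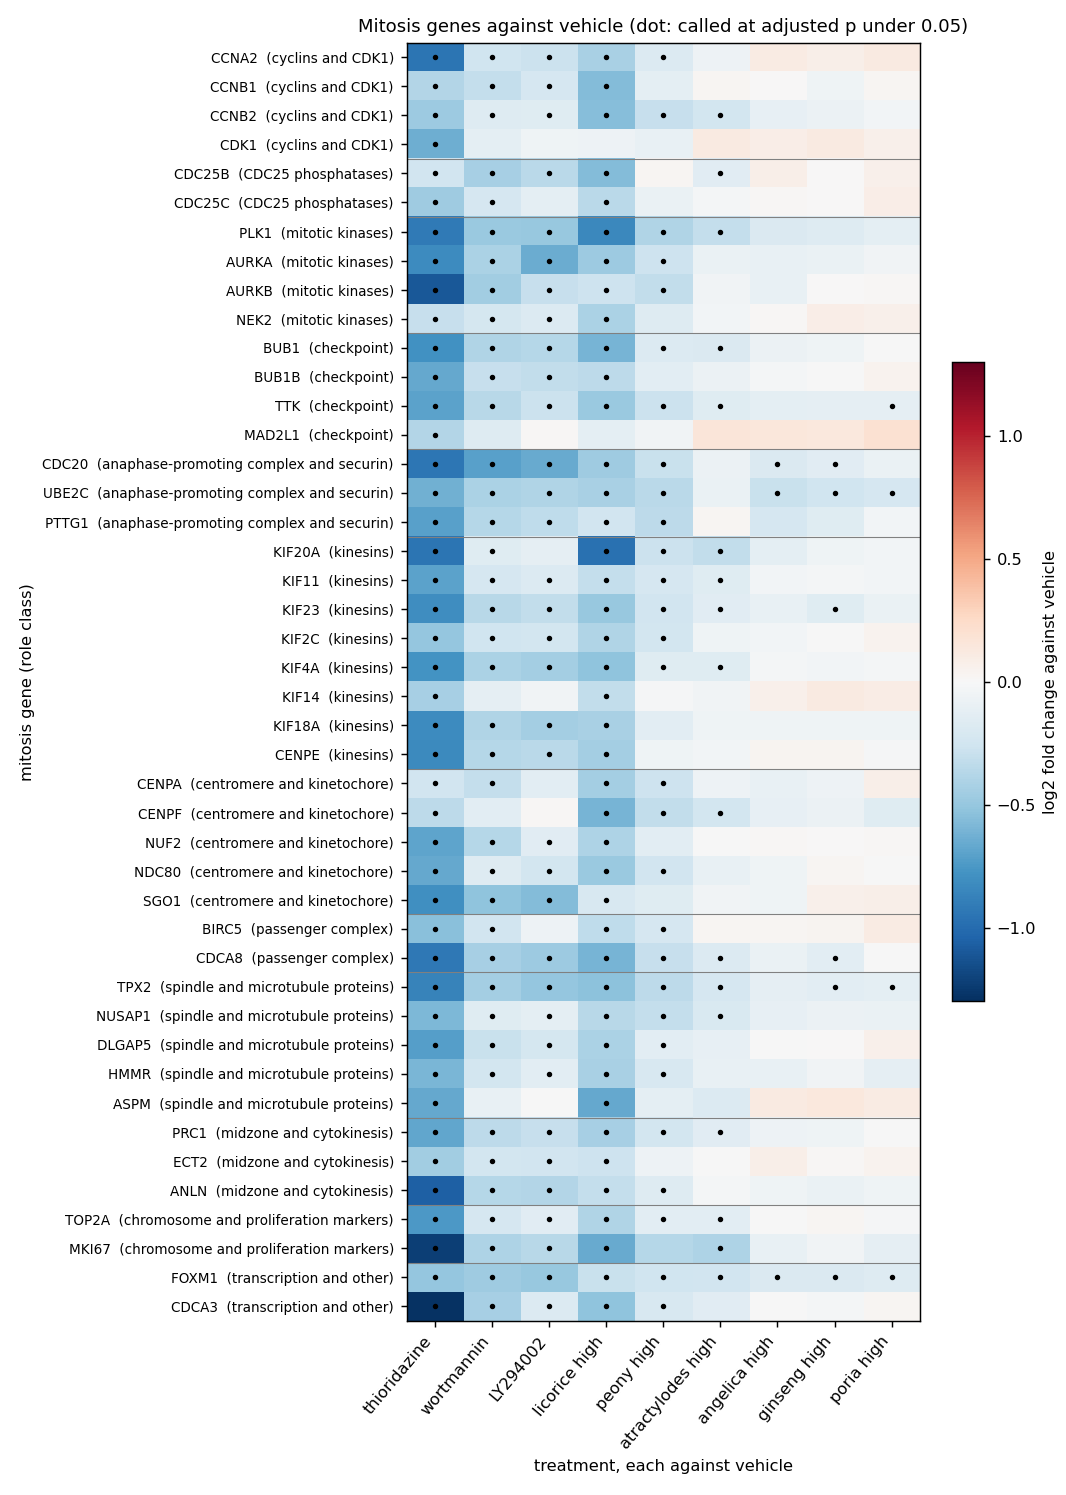
Log2 fold change of each of the 44 mitosis genes against vehicle (rows, grouped by role class) in the 3 drugs and the high dose of the 6 extracts (columns); dots mark genes called at an adjusted p under 0.05. Thioridazine has 44 dots, licorice high 42, wortmannin 39, LY294002 35 and peony high 29, and blue (lower) fills these columns.

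Both PI3-kinase inhibitors lowered most members by a smaller amount. Wortmannin had 39 of 44 called lower (median -0.33), against 16.4% of all genes, and LY294002 had 35 of 44 called lower (median -0.26), against 19.9% of all genes. No member was called higher with either, against 15.4% of all genes with wortmannin and 19.4% with LY294002. CDC20 led in both: it had 157, 164 and 158 CPM after wortmannin, 164, 174 and 159 CPM after LY294002 and 269, 267 and 248 CPM in vehicle (-0.71 ± 0.05 and -0.66 ± 0.05). SGO1, the protector of centromeric cohesion, had 13.8, 13.5 and 13.8 CPM after wortmannin, 13.7, 13.2 and 12.96 CPM after LY294002 and 19.4, 19.4 and 20.3 CPM in vehicle (-0.53 ± 0.06 and -0.57 ± 0.06). PLK1 had 124, 126 and 123 CPM after wortmannin, 120, 131 and 119 CPM after LY294002 and 180, 167 and 172 CPM in vehicle (-0.48 ± 0.06 and -0.49 ± 0.06). In these 3 genes no inhibitor library reached a vehicle library. AURKA was lower still after LY294002, with 85.9, 84.8 and 86.7 CPM, and had 104, 99.6 and 97.02 CPM after wortmannin against 136, 130 and 135 CPM in vehicle (-0.64 ± 0.05 and -0.42 ± 0.05).

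FOXM1, the transcription factor of the group, had 148, 148 and 144 CPM after wortmannin, 144, 151 and 137 CPM after LY294002 and 206, 196 and 205 CPM in vehicle (-0.46 ± 0.05 and -0.49 ± 0.05). CDC25B had 209, 205 and 204 CPM after wortmannin, 216, 221 and 216 CPM after LY294002 and 282, 278 and 274 CPM in vehicle (-0.43 ± 0.03 and -0.35 ± 0.03). BUB1 had 57.4, 56.5 and 57.6 CPM after wortmannin, 60.7, 56.6 and 56.4 CPM after LY294002 and 76.9, 74.6 and 73.6 CPM in vehicle (-0.39 ± 0.04 and -0.37 ± 0.04). All of these were lower than vehicle without overlap. CCNB1 fell with wortmannin (-0.31 ± 0.06) and LY294002 (-0.22 ± 0.06), and so did TOP2A (-0.21 ± 0.04 and -0.14 ± 0.04). CENPA was called lower with wortmannin (-0.31 ± 0.08), and its value with LY294002 was -0.14 ± 0.07. KIF20A had 127, 121 and 124 CPM after wortmannin, 130, 131 and 122 CPM after LY294002 and 144, 136 and 135 CPM in vehicle, and was called lower with wortmannin (-0.15 ± 0.05); its value with LY294002 was -0.11 ± 0.05. That call was lost without vehicle replicate 1 or wortmannin replicate 2. Members not called with either inhibitor were CDK1, the checkpoint protein MAD2L1, the kinesin KIF14, CENPF and the spindle-pole protein ASPM; CDC25C, KIF20A, CENPA and BIRC5 (survivin, of the passenger complex) were in addition not called with LY294002. MKI67 was called with both (-0.40 ± 0.14 and -0.36 ± 0.14), but its libraries ranged widely after LY294002, with 284, 237 and 211 CPM. The MKI67 call was lost with both inhibitors without vehicle replicate 1, with wortmannin also without its replicate 2 or 3, and with LY294002 also without its replicate 2 or 3 or vehicle replicate 3.

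**Figure D3:**
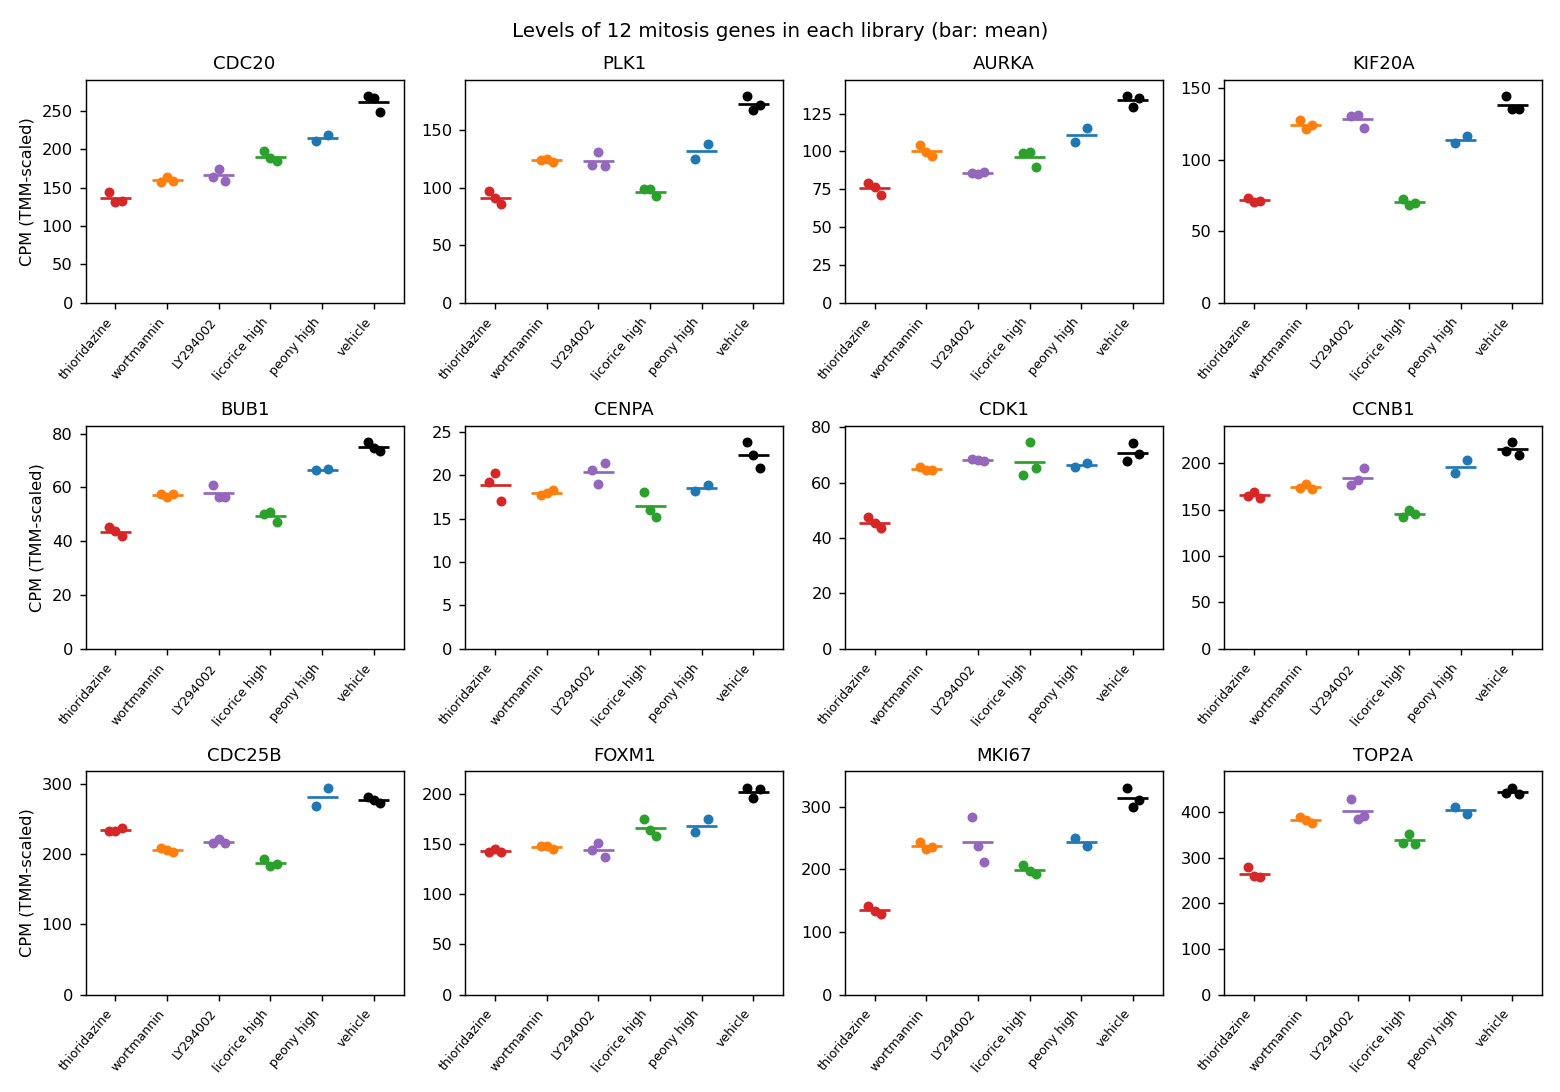
CPM (TMM-scaled) of 12 mitosis genes in each library of the 3 drugs, licorice and peony at the high dose, and vehicle; points are libraries and bars are group means. CDC20 and FOXM1 are lower in all treated groups, and KIF20A is lowest with thioridazine and licorice.

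The drugs share a sample set, so they were also compared with each other without vehicle. The 3 pairs were each tested over all genes. Thioridazine against wortmannin gave 38 members lower (19.8% of all genes were lower) and 1 higher (18.9% of all genes were higher), with a median of -0.36. Thioridazine against LY294002 gave 40 lower (20.4% of all genes) and 1 higher (19.5% of all genes), with a median of -0.40. The largest differences in both were CDCA3 (-0.86 ± 0.06 and -1.11 ± 0.06), MKI67 (-0.82 ± 0.14 and -0.86 ± 0.14) and KIF20A (-0.79 ± 0.05 and -0.83 ± 0.05). The member higher after thioridazine was CDC25B in both pairs (0.19 ± 0.03 against wortmannin and 0.11 ± 0.03 against LY294002): its libraries held 233, 233 and 237 CPM after thioridazine, 209, 205 and 204 CPM after wortmannin and 216, 221 and 216 CPM after LY294002. FOXM1 was not called in either pair (-0.04 ± 0.05 and -0.01 ± 0.05), nor were CENPA (0.07 ± 0.08 and -0.11 ± 0.08) and NEK2 (-0.07 ± 0.06 and -0.12 ± 0.06); missing the threshold does not show that the levels were equal. Wortmannin against LY294002 gave 3 members lower (7.57% of all genes were lower), 1 higher (8.79% of all genes were higher) and a median of -0.04. The 3 were CDCA3 (-0.25 ± 0.06), the kinetochore gene NUF2 (-0.22 ± 0.06) and BIRC5 (-0.19 ± 0.06), and the higher one was AURKA (0.22 ± 0.05, adjusted p = 0.00071 by edgeR). For AURKA the 3 wortmannin libraries all exceeded the 3 LY294002 libraries given above.

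Licorice at the high dose was the extract with the largest change. Of the 44 members 42 were called lower than in vehicle (median -0.42), against 15.0% of all genes lower and 15.9% higher. KIF20A fell most, with 72.9, 68.5 and 70.0 CPM in the licorice libraries against 144, 136 and 135 CPM in vehicle (-0.97 ± 0.05, adjusted p = 1.35e-22 by edgeR). PLK1 had 99.1, 98.8 and 92.7 CPM against 180, 167 and 172 CPM in vehicle (-0.84 ± 0.06). ASPM had 74.8, 75.5 and 74.8 CPM against 124, 117 and 117 CPM in vehicle (-0.67 ± 0.10). The licorice and vehicle libraries of these genes are far apart, with little spread within either group. MKI67 had 206, 197 and 192 CPM against 330, 300 and 310 CPM in vehicle (-0.66 ± 0.14), BUB1 50.2, 50.8 and 47.03 CPM against 76.9, 74.6 and 73.6 CPM in vehicle (-0.61 ± 0.04) and CCNB1 142, 149 and 145 CPM against 213, 223 and 209 CPM in vehicle (-0.57 ± 0.06). CDC25B, with 193, 184 and 186 CPM against 282, 278 and 274 CPM in vehicle (-0.57 ± 0.03), was lower here than with any drug, by level. AURKA (-0.48 ± 0.05), CDC20 (-0.46 ± 0.05), TOP2A (-0.40 ± 0.04), CENPA (-0.44 ± 0.08) and FOXM1 (-0.29 ± 0.05) fell less. CDK1 and MAD2L1 were not called: CDK1 had 62.8, 74.7 and 65.5 CPM against 67.8, 74.5 and 70.4 CPM in vehicle (-0.07 ± 0.06), and the groups overlap, while MAD2L1 stood at -0.12 ± 0.09. SGO1 (-0.21 ± 0.06) and PTTG1, which encodes securin (-0.25 ± 0.07), were the least lowered of those called.

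The licorice doses share a set, so high against low does not involve the vehicle. Between these doses 41 members were called lower at the high dose (median -0.37), against 9.14% of all genes, and the other 3, PTTG1 (-0.16 ± 0.07), SGO1 (-0.16 ± 0.06) and FOXM1 (-0.10 ± 0.05), had negative values too. KIF20A had 72.9, 68.5 and 70.0 CPM at the high dose against 119, 121 and 117 CPM at the low dose (-0.76 ± 0.05), ASPM 74.8, 75.5 and 74.8 CPM against 113, 128 and 121 CPM at the low dose (-0.68 ± 0.10) and PLK1 99.1, 98.8 and 92.7 CPM against 143, 144 and 142 CPM at the low dose (-0.56 ± 0.06). No library of one dose reached a library of the other in these genes. CCNB1 (-0.51 ± 0.06), CDC20 (-0.38 ± 0.05), AURKA (-0.37 ± 0.05), CDC25B (-0.39 ± 0.03) and CDK1 (-0.22 ± 0.06) were lower at the high dose as well. At the medium dose 17 members were lower than in vehicle (12.8% of all genes were lower) and 2 were higher (12.4% of all genes were higher), with a median of -0.08. The 2 higher were CDK1, with 79.4, 86.1 and 90.99 CPM against 67.8, 74.5 and 70.4 CPM in vehicle (0.27 ± 0.06), and AURKB (0.17 ± 0.06). For CDK1 every medium-dose library exceeded every vehicle library. The largest fall at the medium dose was that of MKI67 (-0.49 ± 0.14), whose libraries held 251, 270 and 147 CPM, the third far below the others; without the 5 libraries set apart, which include this one, 14 members were called lower at the medium dose.

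Genes of DNA replication stood differently from the members after licorice high. On a list of 26 S-phase genes, 0 were called lower by edgeR and 8 were called higher (median 0.08), against 15.0% of all genes lower and 15.9% higher; 13 of the 26 had an unadjusted p under 0.05, and DESeq2 called 8. Among those higher were DTL, which directs the destruction of replication licensing factors (0.32 ± 0.05), GINS1, a part of the replicative helicase (0.27 ± 0.06), and PRIM1, the primase (0.25 ± 0.07). After thioridazine 26 of 26 S-phase genes were called lower (median -0.85, 23.8% of all genes), after wortmannin 23 (median -0.34, 16.4% of all genes), after LY294002 22 (median -0.37, 19.9% of all genes) and after peony high 9 (median -0.11, 10.4% of all genes). RRM2, a subunit of ribonucleotide reductase, averaged 55.2 CPM after thioridazine against 226.9 CPM in vehicle (-2.04 ± 0.04). The summed level of the S-phase list was 104.4% of vehicle after licorice high and 53.4% after thioridazine, 81.0% after wortmannin and 81.4% after LY294002. A sum above vehicle was not particular to the high licorice dose. It was 108.2% at the medium and 104.7% at the low dose, and vehicle ranked 8th of 22 groups from the lowest. At the medium licorice dose 11 S-phase genes were called higher and 0 lower, against 12.4% and 12.8% of all genes. Between the high and the low licorice dose 2 S-phase genes were called lower and 3 higher (median 0.02), against 9.14% of all genes lower and 9.02% higher. The difference between the 2 lists was not tested.

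**Figure D4:**
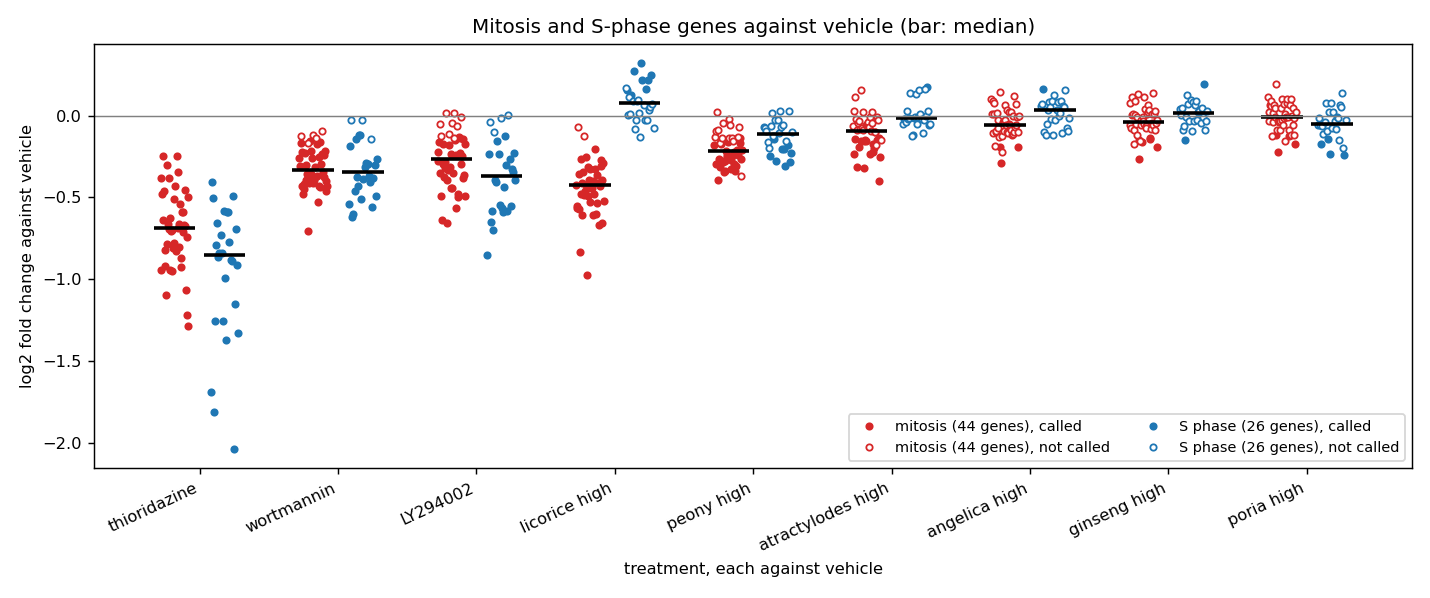
Log2 fold change against vehicle of the 44 mitosis genes (red) and 26 S-phase genes (blue) in each drug and high-dose extract; filled points are called at an adjusted p under 0.05 and bars are medians. With licorice the mitosis median is -0.42 and the S-phase median 0.08, while with each drug both medians are below 0.

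Peony at the high dose had 29 of 44 members called lower (median -0.21), against 10.4% of all genes. The size of this fall depends on the scaling. On library totals alone, the summed level averaged 5275 CPM at the high dose and 5715 CPM in vehicle. The medium and low doses averaged 5327 and 5304 CPM on that scaling, on which no calls were made. PLK1 had 125 and 138 CPM in the peony libraries against 180, 167 and 172 CPM in vehicle (-0.39 ± 0.07). UBE2C, the ubiquitin-conjugating enzyme of the anaphase-promoting complex, had 72.8 and 77.96 CPM against 98.9, 98.3 and 90.8 CPM in vehicle (-0.35 ± 0.08). TPX2, which activates AURKA and nucleates spindle microtubules, had 243 and 246 CPM against 317, 304 and 307 CPM in vehicle (-0.34 ± 0.05). Both peony libraries lay below all vehicle libraries in these 3 genes. CDC20 (-0.28 ± 0.05), KIF20A (-0.28 ± 0.06), AURKA (-0.27 ± 0.05), CENPA (-0.27 ± 0.09), FOXM1 (-0.26 ± 0.06), BUB1 (-0.17 ± 0.05) and TOP2A (-0.14 ± 0.04) were also called lower, whereas CCNB1 (-0.13 ± 0.06), CDK1 (-0.10 ± 0.07), MKI67 (-0.37 ± 0.15) and CDC25B (0.02 ± 0.04) were not. Over all genes the 2 peony high libraries differed from each other by a root mean square of 0.583 on the log2 scale. The other groups of 2 libraries ranged from 0.396 (angelica medium) to 0.455 (angelica low). Libraries in groups of 3 were measured against the mean of the other 2, so their distances are not comparable. Without peony high replicate 1, 15 members were called lower, and without the 5 libraries set apart 22 were; both leave 1 peony high library, which is then assumed to vary like the other groups. Peony was the extract with the most members called at the low dose, 16 of 44 (2.5% of all genes were called lower), and at the medium dose 13 were (0.988% of all genes). High against low dose gave 1 member lower (3.13% of all genes), BIRC5, with 116 and 133 CPM at the high dose against 150 and 145 CPM at the low dose (-0.24 ± 0.07). That count was 6 without peony high replicate 2, and 0 without peony high replicate 1 or either low-dose library, again with 1 library left in that group.

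Atractylodes at the high dose had 17 members called lower (median -0.09), against 6.63% of all genes. With this group and vehicle fitted alone 3 were called, and the share of all genes in that fit is not given here. MKI67 had 174, 268 and 271 CPM against 330, 300 and 310 CPM in vehicle (-0.40 ± 0.14). KIF20A had 101, 111 and 120 CPM against 144, 136 and 135 CPM in vehicle (-0.32 ± 0.05), and PLK1 138, 132 and 147 CPM against 180, 167 and 172 CPM in vehicle (-0.31 ± 0.06). The groups did not overlap in these genes, but the MKI67 value rests on replicate 1, which is far below the other 2 libraries. Without that replicate 11 members were called and the MKI67 value was -0.21 (adjusted p = 0.435 by edgeR); the MKI67 call was also lost without any one of the 3 vehicle libraries. FOXM1 (-0.25 ± 0.05), CCNB2, a B-type cyclin (-0.24 ± 0.05), BUB1 (-0.19 ± 0.04), TOP2A (-0.14 ± 0.04) and CDC25B (-0.14 ± 0.03) were called lower as well; CDC20 (-0.08 ± 0.05), AURKA (-0.09 ± 0.05), CCNB1 (0.03 ± 0.06), CENPA (-0.07 ± 0.07) and CDK1 (0.11 ± 0.06) were not. High against low dose gave 1 member lower (1.86% of all genes), KIF20A (-0.17 ± 0.05), with 101, 111 and 120 CPM at the high dose against 129, 120 and 126 CPM at the low dose. The doses overlap for KIF20A, and the call was lost without atractylodes high replicate 1 or 2 or low-dose replicate 1 or 3.

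Ginseng, angelica and poria changed few members at the high dose. Ginseng high had 6 of 44 called lower (4.2% of all genes), led by UBE2C (-0.26 ± 0.07), FOXM1 (-0.19 ± 0.05) and KIF23, a motor of the midzone (-0.16 ± 0.04). Angelica high had 3 lower (3.53% of all genes), UBE2C (-0.29 ± 0.08), CDC20 (-0.19 ± 0.05) and FOXM1 (-0.19 ± 0.06). Poria high had 4 lower (6.41% of all genes), UBE2C (-0.22 ± 0.07), FOXM1 (-0.17 ± 0.05), TPX2 (-0.12 ± 0.04) and TTK, a checkpoint kinase (-0.12 ± 0.04). UBE2C had 84.3, 79.2 and 76.7 CPM after ginseng, 83.8 and 73.3 CPM after angelica, 86.6, 76.9 and 83.7 CPM after poria and 98.9, 98.3 and 90.8 CPM in vehicle. FOXM1 had 179, 179 and 175 CPM after ginseng, 181 and 174 CPM after angelica, 181, 176 and 182 CPM after poria and 206, 196 and 205 CPM in vehicle. The treated libraries were below vehicle in both genes without overlap, though by narrow margins for UBE2C. The counts change when 1 library is left out. With ginseng 1 member was called without vehicle replicate 1 or 2 or ginseng high replicate 2 or 3, and 3 without vehicle replicate 3 or ginseng high replicate 1. With angelica 0 were called without vehicle replicate 1 or angelica high replicate 2, and 1 without vehicle replicate 2 or angelica high replicate 1; without an angelica high library the one left is assumed to vary like the other groups. With poria 0 were called without vehicle replicate 1 or poria high replicate 2, 1 without vehicle replicate 2 or 3, and 2 without poria high replicate 1. With each group and vehicle fitted alone, 10 were called with ginseng, 11 with angelica and 8 with poria. Such a fit filters and estimates the spread anew for all genes. The share of all genes it calls is not given here, so these counts cannot be read as a change in the members alone.

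At the medium dose ginseng had 0 members called in edgeR's test (0.402% of all genes were called lower), with 12 members at an unadjusted p under 0.05 and 3 called by DESeq2. Poria medium also had 0 (1.04% of all genes), with 6 at an unadjusted p under 0.05 and 1 called by DESeq2. Atractylodes medium had 1 (0.385% of all genes), CCNB2 (-0.23 ± 0.05), with 16 at an unadjusted p under 0.05 and 7 called by DESeq2, and angelica medium had 10 (1.44% of all genes), led by UBE2C (-0.30 ± 0.08) and PLK1 (-0.30 ± 0.07). At the low dose licorice had 9 called lower (1.76% of all genes), led by PLK1 (-0.28 ± 0.06) and KIF20A (-0.21 ± 0.05). Angelica low had 4 (0.692% of all genes), atractylodes low 3 (0.48% of all genes), ginseng low 2 (0.374% of all genes) and poria low 2 (0.301% of all genes); DESeq2 called 8 with angelica low, 9 with atractylodes low, 6 with ginseng low and 5 with poria low. These were KIF23, KIF4A, TPX2 and DLGAP5 with angelica, TPX2, KIF23 and BUB1 with atractylodes, KIF23 and BUB1 with ginseng, and TPX2 and TTK with poria. The median over members was negative in all 12 medium- and low-dose comparisons, from -0.14 (peony medium) to -0.03 (poria medium), with the same vehicle libraries in each. Summed over the 6 low-dose comparisons there were 36 calls, and 14 without vehicle replicate 1 and 24 without peony low replicate 1; over the 6 medium-dose comparisons there were 41, and 19 without it. Vehicle replicate 1 held the highest summed level of all libraries, 5994 CPM.

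Across the 21 comparisons with vehicle, TPX2 was called lower in 16, KIF23 in 15, FOXM1 in 14, BUB1 in 13, and TTK and CDCA8 (borealin, of the passenger complex) in 12 each. TPX2 had 180, 167 and 160 CPM after thioridazine, 214, 221 and 205 CPM after licorice high, 281, 277 and 294 CPM after poria high and 317, 304 and 307 CPM in vehicle, so that even the least affected of these groups lay below vehicle. CDK1 and MAD2L1 were called lower in 1 comparison each, thioridazine, and their values were negative in 6 and 5 of the 21. MAD2L1 had 37.5, 32.3 and 31.8 CPM after thioridazine against 44, 45.7 and 42.7 CPM in vehicle (-0.38 ± 0.09). Since all 21 share the vehicle libraries, these counts describe the members and are not repeated evidence. With the mean of the 6 low-dose groups in place of vehicle, a choice made after seeing the data, 44 members were lower with thioridazine (27.3% of all genes in the same contrast), 38 with wortmannin (20.8% of all genes), 31 with LY294002 (23.1% of all genes), 43 with licorice high (16.6% of all genes) and 20 with peony high (8.39% of all genes). By edgeR 3 were lower with atractylodes high (7.21% of all genes) and 0 with ginseng high (2.65% of all genes), angelica high (1.91% of all genes) and poria high (7.97% of all genes).

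**Figure D5:**
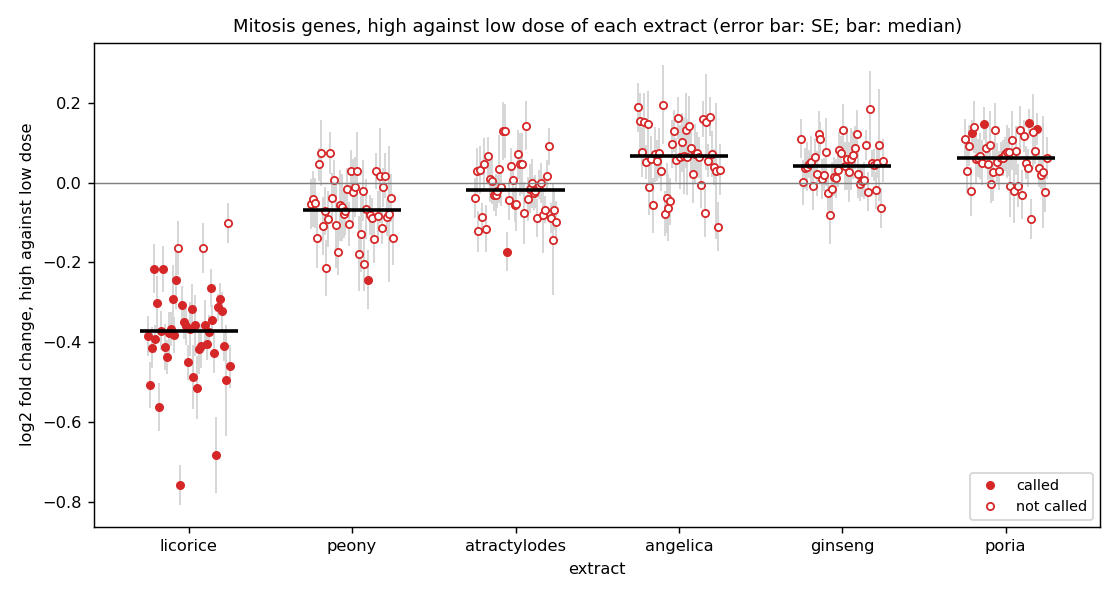
Log2 fold change ± SE of each of the 44 mitosis genes at 500 against 20 µg/mL for each extract, compared within a sample set; filled points are called at an adjusted p under 0.05 and black bars are medians. Licorice stands at a median of -0.37 with 41 genes called, and the medians of the other extracts lie between -0.07 (peony) and 0.07 (angelica).

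High against low dose of the other extracts gave few calls. Poria had 4 members higher at the high dose (2.73% of all genes): BUB1 with 76.2, 73.2 and 74.9 CPM against 66.9, 66.2 and 69.5 CPM at the low dose (0.15 ± 0.04), the spindle protein DLGAP5 (0.15 ± 0.04), the cytokinesis factor ECT2 (0.14 ± 0.04) and CDC25B (0.12 ± 0.03). All BUB1 libraries of the high dose exceeded those of the low dose; 1 member was called without poria low replicate 2 or poria high replicate 3, and 2 without poria high replicate 1 or 2 or poria low replicate 1. Ginseng had 0 called in either direction by edgeR (0.653% of all genes), with 5 members at an unadjusted p under 0.05 and 0 called by DESeq2. Angelica had 0 called by edgeR (0.943% of all genes), with 7 at an unadjusted p under 0.05 and 3 called by DESeq2. The change between doses was then compared between the 2 extracts that share a set, as a test of the difference itself. The high-minus-low change of ginseng exceeded that of licorice in 41 of 44 members (6.52% of all genes were higher in this contrast), by most for ASPM (0.87 ± 0.13), KIF20A (0.77 ± 0.07) and MKI67 (0.59 ± 0.19). The 3 not called were UBE2C, PTTG1 and FOXM1, and 36 to 39 members were called with 1 library left out. For atractylodes minus poria 1 member was lower (1.5% of all genes), CDC25B (-0.21 ± 0.05); 3 were without atractylodes high replicate 3, and 2 without atractylodes high replicate 1 or low-dose replicate 2 or 3. For peony minus angelica 0 were called by edgeR in either direction (0.938% of all genes), with 12 at an unadjusted p under 0.05 and 0 called by DESeq2; 2 were called without angelica low replicate 1 or peony high replicate 2.

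Other mitosis genes outside the 44, a list of 55, moved in the same comparisons. With thioridazine 52 of 55 were lower (median -0.61), against 23.8% of all genes, and with wortmannin 49 (median -0.33), against 16.4% of all genes. With LY294002 39 were lower and 2 higher (median -0.26), against 19.9% and 19.4% of all genes. With licorice high 33 were lower and 2 higher (median -0.23), against 15.0% and 15.9% of all genes, and with peony high 23 were lower and 1 higher (median -0.13), against 10.4% and 10.3% of all genes. KIF18B, a kinesin that shortens astral microtubules, fell most with thioridazine (-1.35 ± 0.07), wortmannin (-0.56 ± 0.07) and LY294002 (-0.47 ± 0.07). NCAPG, a subunit of condensin (-1.11 ± 0.04), and HJURP, the chaperone of CENPA (-1.04 ± 0.05), followed with thioridazine. Licorice high lowered the condensin subunits SMC4 (-0.77 ± 0.04) and NCAPD2 (-0.65 ± 0.04) most, while CENPU and MIS18A were higher. The 2 genes higher with LY294002 were STMN1, a microtubule-destabilising protein (0.36 ± 0.05), and HMGB2 (0.35 ± 0.06).

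Of 32 regulators of these genes 31 were tested. CDKN1A, which encodes p21, was higher with thioridazine (1.90 ± 0.08), LY294002 (0.80 ± 0.08), wortmannin (0.64 ± 0.08) and licorice high (0.46 ± 0.08). CDKN1C, which encodes the related inhibitor p57, was higher with thioridazine (2.02 ± 0.24), wortmannin (1.04 ± 0.26), LY294002 (0.96 ± 0.27) and peony high (0.86 ± 0.30). Its levels were very low, with means of 0.5256 CPM in vehicle and 2.147 CPM after thioridazine. CDKN1A averaged 23.64 CPM in vehicle and 88.02 CPM after thioridazine. For CDKN1C the peony mean was 0.9476 CPM at the high dose and 1.187 CPM at the low dose. Its fold changes therefore rest on few counts. MYBL2, which encodes B-MYB, was lower with thioridazine (-1.50 ± 0.06), wortmannin (-0.98 ± 0.06), LY294002 (-0.80 ± 0.06), peony high (-0.38 ± 0.07), poria high (-0.25 ± 0.06), atractylodes high (-0.21 ± 0.06) and licorice high (-0.15 ± 0.06). E2F1, an activator of S-phase genes, was lower with thioridazine (-0.79 ± 0.07) and wortmannin (-0.19 ± 0.07) and higher with licorice high (0.44 ± 0.07). In all, 20 regulators were lower and 7 higher with thioridazine (23.8% of all genes were lower and 24.6% higher). With wortmannin 13 were lower and 5 higher (16.4% and 15.4% of all genes), and with LY294002 17 were lower and 6 higher (19.9% and 19.4% of all genes). With licorice high 8 were lower and 8 higher (15.0% and 15.9% of all genes), and with peony high 7 were lower and 2 higher (10.4% and 10.3% of all genes). The part of these regulators in the change of the members was not tested.

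Of 11159 genes averaging 5 CPM or more, the genes outside the 44 whose group means of log2 CPM followed the members' mean most closely over the 22 groups were GTSE1 (Pearson r 0.982), RACGAP1 (0.977), TUBB (0.962), SPDL1 (0.961) and ARHGAP11A (0.96), and then KIF20B, CDCA2, SPAG5, FBXO5 and PRR11. GTSE1, RACGAP1, ARHGAP11A, KIF20B and SPAG5 are on the list of 55. The group means come from the same libraries and share their scaling, so r is a description.

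Some members need care. Of the 44, 27 overlap another annotated gene, 10 of them a protein-coding gene on the opposite strand (PLK1 with ERN2, KIF20A with BRD8 and CDC23, FOXM1 with ITFG2 and RHNO1, for example); the library kit marks strand, but no source used here gives the strand setting of the counting, so such reads cannot be told apart. PTTG1 and KIF4A have near-identical copies elsewhere in the genome and their levels are uncertain. The 4 members with more than 8000 bases of exon, MKI67, CENPF, ASPM and CENPE, were low together in 2 libraries: in licorice medium replicate 3 their median difference from the other libraries of the group was -0.55 on the log2 scale, against 0.02 for the other 40 members, and in atractylodes high replicate 1 it was -0.29 against 0.02. These 4 were grouped after their values were seen, and the part of transcript length in their values was not tested.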

How the data were processed

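The deposited table holds expected counts, which the authors made with RSEM 1.3.3 and STAR 2.7.3a after Trim Galore 0.6.5 and FastQC 0.11.9 on GRCh38, per the submitters' processing notes. Its other 219 columns were not used. Of the values, 9.48% were not whole (tolerance 1e-06); all were rounded. Gene names come from a table of Ensembl identifiers (56558 of 60675 matched), and exon lengths and overlaps from GENCODE 29 (57055 matched).

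One edgeR 4.0.16 quasi-likelihood model with TMM scaling was fitted over all 60 libraries by group, after filterByExpr with a minimum count of 10 and a minimum total of 15. The fit was also run on simulated counts with known changes and no effect of a sample set, and the outcome is not given here. Benjamini-Hochberg adjustment ran over 17919 genes in each comparison. SE is the absolute log2 fold change divided by the square root of F. R was 4.3.3. Replicate numbers were not used as a block. Alternatives were DESeq2 1.42.0, RLE factors, no filter, a replicate block, fits of the 2 groups alone, leaving out libraries and, chosen after seeing the data, the low-dose groups in place of vehicle.

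Named genes were a set of 12 anchor members, the 3 members with the largest called change in each comparison, and members called in the other direction; genes named beyond these were chosen after their values were seen. The members and all lists were chosen with earlier results of these data known.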

Additional observations from a re-analysis of the deposited data

Results flagged for a closer look

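In a test of the difference itself, the high-minus-low change of ginseng was higher than that of licorice in 41 members (6.52% of all genes), with the largest values for ASPM (0.869), KIF20A (0.773) and MKI67 (0.591) on the log2 scale. With 1 library left out, 36 to 39 members were called. For atractylodes minus poria 1 of 44 members was lower, CDC25B (-0.21), against 1.5% of all genes, with 0 called by edgeR with no filter on low counts and 3 called by DESeq2. For peony minus angelica 0 were called by edgeR, against 0.938% of all genes, with 12 at an unadjusted p under 0.05 and 0 called by DESeq2.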

How the results depend on the processing

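Calls lower than vehicle ran from 43 to 44 with thioridazine, 36 to 39 with wortmannin, 28 to 35 with LY294002 and 41 to 42 with licorice high when 1 library was left out. Ranges for the same leave-outs were 15 to 30 with peony high, 11 to 17 with atractylodes high, 1 to 3 with ginseng high, 0 to 2 with angelica high, 0 to 3 with poria high, 19 to 36 over the medium doses and 14 to 40 over the low doses. High against low dose ranged from 1 to 4 with poria, 0 to 1 with atractylodes and 0 to 6 with peony, and dose differences from 1 to 3 (atractylodes minus poria) and 0 to 2 (peony minus angelica). Where a peony or angelica group kept 1 library, that library was assumed to vary like the other groups. For ginseng minus licorice, the count of members called higher ran from 36 to 39 when 1 library was left out. The 16 medium-dose libraries were not left out in turn. With the 2 groups fitted alone, counts were 8 with poria high, 3 with atractylodes high, 10 with ginseng high, 11 with angelica high, 5 for wortmannin below LY294002, 0 for atractylodes high against low and 70 over the medium doses. With the low-dose groups in place of vehicle they were 0 with poria, ginseng and angelica high and 3 with atractylodes high by edgeR. Among 120 fold changes of named members in that setting, 6 turned positive: UBE2C (0.006), TPX2 (0.062), AURKA (0.104) and BUB1 (0.165) with poria high, and KIF23 (0.029) and BUB1 (0.118) with ginseng high. Members not named for a comparison were not checked for a change of sign. With no filter, counts were 3 with ginseng high, 5 with angelica high, 0 for poria and for atractylodes high against low, 0 for atractylodes minus poria and 1 for peony minus angelica. Without the 5 libraries that stood apart they were 8 with angelica high, 5 for wortmannin below LY294002, 0 for atractylodes and for peony high against low, 2 for atractylodes minus poria and 63 over the low doses. DESeq2 gave 5 with angelica high, 3 for atractylodes minus poria and 55 over the low doses. Shares of all genes called are given above for the low-dose groups in place of vehicle, but not for the other settings. The cause of these changes was not tested.

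With the replicate block, peony high against low gave 2 calls, and 4 of 35 counts moved. In 0 of 120 pairs of groups were all correlations of same-numbered libraries over 0.1 (median 0.004, range -0.181 to 0.225), so the numbers were not taken to pair the libraries. The rule pools pairs within and across sample sets, so it could miss a weak pairing within a set.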
